A study of Mus musculus with 2 samples.

Results

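The 8 genes described are transcription factors that mark retinal ganglion cells, the neurons whose axons form the optic nerve. They are *Pou4f1*, *Pou4f2*, *Pou4f3*, *Isl1*, *Eomes*, *Ebf1*, *Ebf3* and *Irx2*, taken by symbol from the 32285 genes of the count tables, and all 8 were found. They were counted in single cells of E17.5 mouse eye cups, in 1 pooled library of *Myrf* humWT/humWT and 1 pooled library of *Myrf* humdG/humdG embryos, at 3 eye cups per library by the labels. The methods of the study count 3 mice per genotype and more eyes than that, so the number of eyes pooled is uncertain. In both genotypes the human last *MYRF* exon stands in place of the mouse exon, and humdG adds a C-terminal frameshift variant. The labels say that cornea, lens and optic nerve were taken off and name conditional knockout mice in the same protocol, while the methods of the study keep the cornea, so the dissection of these libraries is uncertain. The study asked what the variant does to the retinal pigment epithelium (RPE), and the factors below were not its subject. Because each genotype is 1 library, no test between genotypes was possible, embryo and preparation cannot be told apart from genotype, and every interval is a 95% interval of counting error only.

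In the mouse retina the progenitor factor Atoh7 makes a cell competent to become a ganglion cell, and Pou4f2 and Isl1 then act together to start the ganglion cell programme. Pou4f1 and Pou4f3, the other POU-domain proteins of the family, are kept in subsets of ganglion cells, and Eomes, a T-box protein, in another subset that includes the melanopsin cells. Isl1, a LIM-homeodomain protein, is also made by cholinergic amacrine cells and bipolar cells. Ebf1 and Ebf3 are helix-loop-helix proteins that mesenchyme makes as well as neurons, and Irx2 is an Iroquois homeobox protein of ganglion cells and other tissues.

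Positions are given on GRCm38, that of *Pou4f3* with its levels. *Pou4f1* is at chr14:104461676-104467999 on the minus strand and *Pou4f2* at chr8:78433010-78436645 on the minus strand. *Isl1* at chr13:116298281-116309689 on the minus strand and *Irx2* at chr13:72628820-72634198 on the plus strand share chromosome 13. *Eomes* is at chr9:118478212-118486132 on the plus strand. *Ebf1* at chr11:44617317-45008091 on the plus strand spans 390775 bases and *Ebf3* at chr7:137193673-137314445 on the minus strand spans 120773 bases, while none of the others is longer than 11409 bases. All 8 are protein-coding.

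The promoters of *Pou4f1* and *Isl1* are shown because their levels across cell sets had the highest correlation among the POU and LIM factors, and because both hold the same E-box, the kind of site that helix-loop-helix proteins such as Atoh7 bind. RefSeq promoters on GRCm38.p6 were at hand for 7 of the 8 genes, *Pou4f3* left aside. The 250 bases before the start are at chr14:104468000-104468249 for *Pou4f1* and at chr13:116309689-116309938 for *Isl1*, both read 5′ to 3′ on the minus strand, with the E-box CAGCTG in capitals.
Pou4f1: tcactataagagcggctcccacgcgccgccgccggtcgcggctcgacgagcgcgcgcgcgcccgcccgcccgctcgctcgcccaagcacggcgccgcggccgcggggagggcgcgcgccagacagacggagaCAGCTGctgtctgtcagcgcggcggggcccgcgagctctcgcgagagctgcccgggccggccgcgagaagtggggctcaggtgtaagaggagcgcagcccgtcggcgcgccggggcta
Isl1: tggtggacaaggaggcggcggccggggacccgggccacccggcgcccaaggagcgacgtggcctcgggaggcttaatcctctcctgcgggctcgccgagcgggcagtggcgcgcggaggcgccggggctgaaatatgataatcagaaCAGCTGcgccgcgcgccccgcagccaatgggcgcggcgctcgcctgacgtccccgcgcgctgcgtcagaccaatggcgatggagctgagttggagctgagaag
CAGCTG begins 118 bases before the start in *Pou4f1* and 103 bases before it in *Isl1*. It reads the same on both strands and was in 16.3% of 32851 RefSeq promoter windows of 300 bases. Of the other letters searched on both strands, the E-box CAGATG was in the window of *Irx2* and in 17.2% of all windows, and the POU-type site ATTAAT was in that of *Eomes* and in 4.75% of all. The homeobox site TAATTA, in 5.29% of all windows, was in none of the 8 windows of these genes, and no site searched was in the windows of *Pou4f2*, *Ebf1* or *Ebf3*.

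The tables held 17421 *Myrf* humWT/humWT and 19565 *Myrf* humdG/humdG barcodes with 129135207 and 114319529 unique molecular identifiers (UMIs, 1 per captured transcript). In every pair of values below the first is *Myrf* humWT/humWT and the second *Myrf* humdG/humdG. More than 500 genes and under 15% mitochondrial UMIs left 17017 and 19129 cells, and the looser limit of 200 genes that the study states left 17142 and 19302. The 2 libraries stood apart in depth and makeup. A single cluster of low-depth cells held 21.1% of *Myrf* humWT/humWT cells at a median of 2297 UMIs and 42.2% of *Myrf* humdG/humdG cells at a median of 1661 UMIs, and outside it the medians were 4747 and 6358.5 UMIs. Mesenchyme-like cells numbered 2251 and 1126 and retinal progenitor-like cells 1992 and 3199. The libraries shared 93 barcodes among the kept cells, none of them in the ganglion cell set described next. *Myrf* itself, whose replaced exon is the last, was at 17.2 and 7.79 CPM (UMIs per 1000000 UMIs of the cell set) in the whole libraries and at 285 and 195 CPM in RPE-like cells. Counts of a 3′ assay do not show the variant, so this checks neither label.

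No cluster of the integrated libraries was named ganglion cell-like, with the 8 factors kept out of the clustering. A name needed a marker among the 20 leading genes of the cluster. Cluster 21 of a finer clustering, of 82 and 166 cells, missed it, with 6 of 7 ganglion cell markers and also 4 horizontal cell markers raised. Ganglion cells were therefore taken by a marker gate. A cell passed with UMIs of at least 3 of 7 markers (*Sncg*, *Nefl*, *Nefm*, *Rbpms*, *Slc17a6*, *Thy1* and *Nrn1*) and of at most 1 of 8 amacrine markers. This gate passed 165 and 275 cells. Of these, 123 and 101 were members of clusters led by markers of tissues outside the retina, 89 and 57 of them mesenchyme-like. The remaining 42 and 174 cells, called retina-side gate cells below and set apart after the data were seen, were 0.247% (0.178% to 0.333%) and 0.910% (0.780% to 1.05%) of the kept cells. Their median depth was 5789 and 3771.5 UMIs, and 13 and 90 of them lay in the low-depth cluster. Unnamed cluster 13 held 14 and 18 of them, retinal progenitor-like clusters 9 and 36, and the photoreceptor precursor-like cluster 1 and 13. The amacrine-like cluster held 3 and 6, the neurogenic progenitor-like cluster 0 and 6, and unnamed cluster 4 held 2 and 5. The makeup of the set by cluster thus differed between the libraries. The name retina-side means only that the cluster of a cell was not marked as a tissue outside the retina. In the low-depth cluster the only marker raised was *Sncg*, itself a gate marker, and in cluster 4 none was. Neither of these clusters was thus shown to be retinal. Of red blood cell-like cells, which show the free RNA of the droplets, 1 of 501 and 1 of 259 passed the gate, at medians of 4068 and 4129 UMIs. Their intervals, 0.00505% to 1.11% and 0.00977% to 2.13%, held the shares of the low-depth cluster that passed, 0.362% and 1.11%. They also held those of retinal progenitor-like cells, 0.452% and 1.13%, while cluster 13 lay above them at 4.96% and 4.58%. The gate marker *Sncg* was at 7.60 and 36.8 CPM in red blood cell-like cells, and *Rbpms* at 26.4 and 16.7 CPM. Over 4 gate markers tested there the median log2 of *Myrf* humdG/humdG over *Myrf* humWT/humWT was 0.88, beside -0.07 over all genes tested. How far free RNA or doublets fill the gate, or shape its share in each library, was not tested. Of mesenchyme-like cells 3.95% and 5.06% passed, at medians of 15955 and 17627.5 UMIs.

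The gate used none of the 8 factors, so their levels bear on its name. Each of the 8 was at least 2-fold higher in retina-side gate cells than in the other retinal clusters in both libraries, where 4.9% of 16171 genes were. Those other retinal clusters leave out the low-depth cluster and unnamed cluster 4, whereas 13 and 90 of the gate cells were low-depth cells. *Pou4f1* was at 162 CPM (121 to 212) in *Myrf* humWT/humWT gate cells and 76.8 CPM (60.8 to 95.7) in *Myrf* humdG/humdG gate cells, against 5.36 and 9.20 CPM in other retinal cells. *Pou4f2* was at 40.5 CPM (21.5 to 69.2) and 28.2 CPM (18.9 to 40.5), against 1.84 and 3.55 CPM. *Pou4f3*, at chr18:42394539-42397249 on the plus strand, was at 12.5 CPM (3.39 to 31.9) and 44.7 CPM (32.7 to 59.6), against 0.904 and 1.36 CPM. For these POU factors no gate interval reached the level of the other retinal cells in either library. *Isl1* was at 181 CPM (137 to 233) and 248 CPM (218 to 280), 17.1-fold and 7.03-fold over the other retinal cells. *Ebf1* was at 1401 CPM (1274 to 1536) and 936 CPM (878 to 997), 11.5-fold and 8.10-fold higher. *Ebf3* was 6.35-fold and 5.13-fold higher, and *Irx2* 7.76-fold and 10.0-fold higher. *Eomes* had the smallest fold of the 8, at 2.81 and 2.43, and rested on 3 and 12 UMIs. Against the low-depth cluster the gate was less apart in *Myrf* humdG/humdG: *Pou4f1* was at 32.4 CPM there and *Eomes* at 10.4 CPM (8.81 to 12.2), and the latter overlapped the gate. In single cells *Pou4f1* had a UMI in 12 of 42 (28.6%) and 41 of 174 (23.6%) gate cells. The red blood cell-like shares, at median depths of 4063.5 and 4144.5 UMIs, were 2.20% and 3.88%. *Isl1* had one in 9 (21.4%) and 50 (28.7%), against 1.00% and 4.65%, and *Pou4f2* in 6 (14.3%) and 18 (10.3%), against 0.600% and 1.16%. *Ebf1* was the factor most often seen in both sets, in 25 (59.5%) and 86 (49.4%) gate cells and in 16.6% and 13.6% of red blood cell-like cells. The median fold over the 8 was 13.4-fold and 8.08-fold, and over all 16171 genes 1.11-fold and 0.932-fold.

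**Figure D1:**
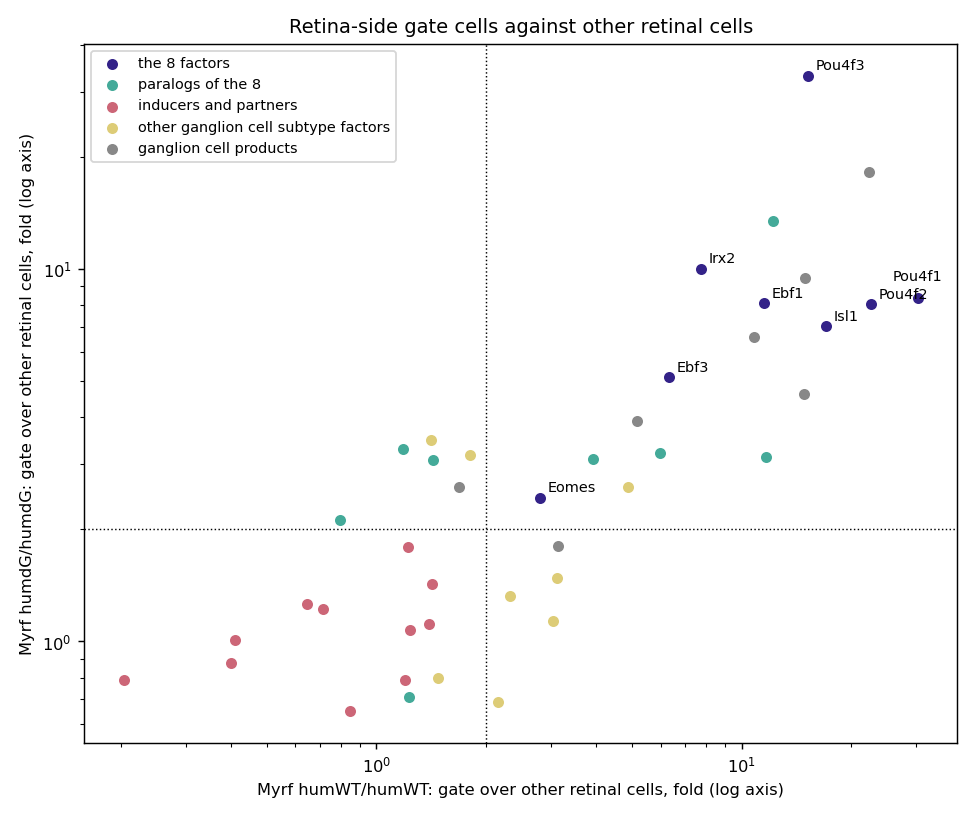
Fold of the level in retina-side gate cells over the other retinal cells, Myrf humWT/humWT on the x axis and Myrf humdG/humdG on the y axis, both log axes, 1 point per gene coloured by gene list, with dotted lines at 2-fold. All 8 factors lie above both lines, Eomes nearest to them at 2.81 and 2.43, while no gene of the inducer list lies above both.

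Lists of related genes were set beside the 4.9% of 16171 genes that were at least 2-fold higher in the gate in both libraries. None of 11 tested inducers and partners, the factors that act in progenitors and newborn neurons, was, which is near that share. Their median was 0.846-fold and 1.08-fold, with *Atoh7* at 1.40 and 1.12 and *Neurog2*, a proneural factor of dividing progenitors, at 0.203 and 0.788. Of 8 tested paralogs of the factors 4 passed, among them *Isl2*, a LIM factor of ganglion cells with crossed axons, at 11.6-fold and 3.13-fold and *Irx4* at 12.2-fold and 13.5-fold. *Irx4* rested on 2 and 11 gate UMIs, and *Irx1* and *Irx6*, which also passed, on 2 and 3 and on 3 and 5. Of 8 other factors of ganglion cell subtypes only *Barhl2* passed, at 4.88-fold and 2.60-fold. Of 7 tested products of ganglion cells 5 passed, led by the growth cone protein gene *Gap43* at 22.4-fold and 18.3-fold and the neuronal RNA-binding protein gene *Elavl4* at 14.9-fold and 9.47-fold. *Opn4*, the melanopsin gene, had 0 and 3 UMIs in the gate and was not compared.

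Across the cell sets of the main clustering *Pou4f1*, *Pou4f2*, *Pou4f3*, *Isl1*, *Ebf1* and *Ebf3* were highest in retina-side gate cells in both libraries. This was not always beyond counting error. The share of all genes that were highest there was not counted, and the gate is a small set of 321252 and 1029056 UMIs. For *Pou4f1* the next level was cluster 13 in *Myrf* humWT/humWT, at 22.5 CPM (17.7 to 28.3), and the low-depth cluster in *Myrf* humdG/humdG, at 32.4 CPM (29.6 to 35.4), and neither interval reached that of the gate. Cluster 13, of 282 and 393 cells, stayed unnamed, with 5 amacrine and 5 ganglion cell markers raised in it. For *Pou4f2* cluster 13 came next in *Myrf* humWT/humWT at 6.48 CPM (4.01 to 9.91), and the low-depth cluster in *Myrf* humdG/humdG at 10.5 CPM (8.87 to 12.2), which did not differ from cluster 8 at 9.86 CPM (5.84 to 15.6) beyond counting error. The next set for *Pou4f3* was cluster 13 at 4.01 CPM (2.14 to 6.86), whose interval overlapped the gate in *Myrf* humWT/humWT, and the low-depth cluster at 4.89 CPM (3.83 to 6.16), clear of it, in *Myrf* humdG/humdG. The level of free RNA was read in cells that do not make POU factors, the red blood cell-like cells. *Pou4f1* was at 5.81 and 8.76 CPM there and *Pou4f2* at 1.34 and 3.51 CPM, and a level of this size was read as background. Unnamed cluster 8 lay at 3.34 and 19.7 CPM for *Pou4f1* and muscle-like cells at 8.01 and 15.99 CPM. In *Myrf* humdG/humdG the intervals of these sets, 13.8 to 27.3 and 12.2 to 20.5 CPM, overlapped that of red blood cell-like cells, 4.20 to 16.1 CPM.

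*Isl1* was also high in cluster 13, at 74.1 CPM (65.0 to 84.1) and 184 CPM (175 to 194), as a whole below the gate in both libraries. A part of it was not: cluster 21 of the finer clustering, almost all within cluster 13, was at 210 CPM (180 to 243) and 783 CPM (737 to 830). The first overlapped the gate and the second was above it. Amacrine-like cells, next among the named classes, were at 11.4 and 23.5 CPM, against 3.13 and 12.3 CPM in red blood cell-like cells. *Eomes* was highest outside the gate, in amacrine-like cells at 27.8 CPM (22.1 to 34.5) and 25.7 CPM (21.6 to 30.3), where 52 of 472 and 84 of 769 cells had a UMI, against 4 of 500 and 1 of 258 red blood cell-like cells. Its gate level of 9.34 CPM (1.93 to 27.3) overlapped the amacrine-like level in *Myrf* humWT/humWT and its 11.7 CPM (6.03 to 20.4) did not in *Myrf* humdG/humdG.

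The remaining 3 factors were shared with tissue around the retina. *Ebf1* was at 628 CPM (619 to 636) and 558 CPM (548 to 569) in mesenchyme-like cells and *Ebf3* at 133 and 102 CPM, each below its gate level. Cluster 13 had *Ebf1* at 731 and 536 CPM, and its *Ebf3* level of 192 CPM (178 to 208) overlapped the gate, at 212 CPM (164 to 268), in *Myrf* humWT/humWT. In *Myrf* humdG/humdG *Ebf3* was at 119 CPM (112 to 127) there and at 155 CPM (131 to 180) in the gate. *Irx2* was highest in mesenchyme-like cells at 27.8 CPM (26.1 to 29.6) and 30.2 CPM (27.8 to 32.8), and its gate levels of 21.8 CPM (8.76 to 44.9) and 26.2 CPM (17.3 to 38.2) did not differ from these beyond counting error. Unnamed cluster 18 had *Ebf1* at 726 and 610 CPM, blood vessel-like cells at 385 and 309 CPM and cartilage-like cells at 185 CPM (171 to 199) and 607 CPM (570 to 645). In red blood cell-like cells *Ebf1* was at 45.6 and 49.96 CPM.

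**Figure D2:**
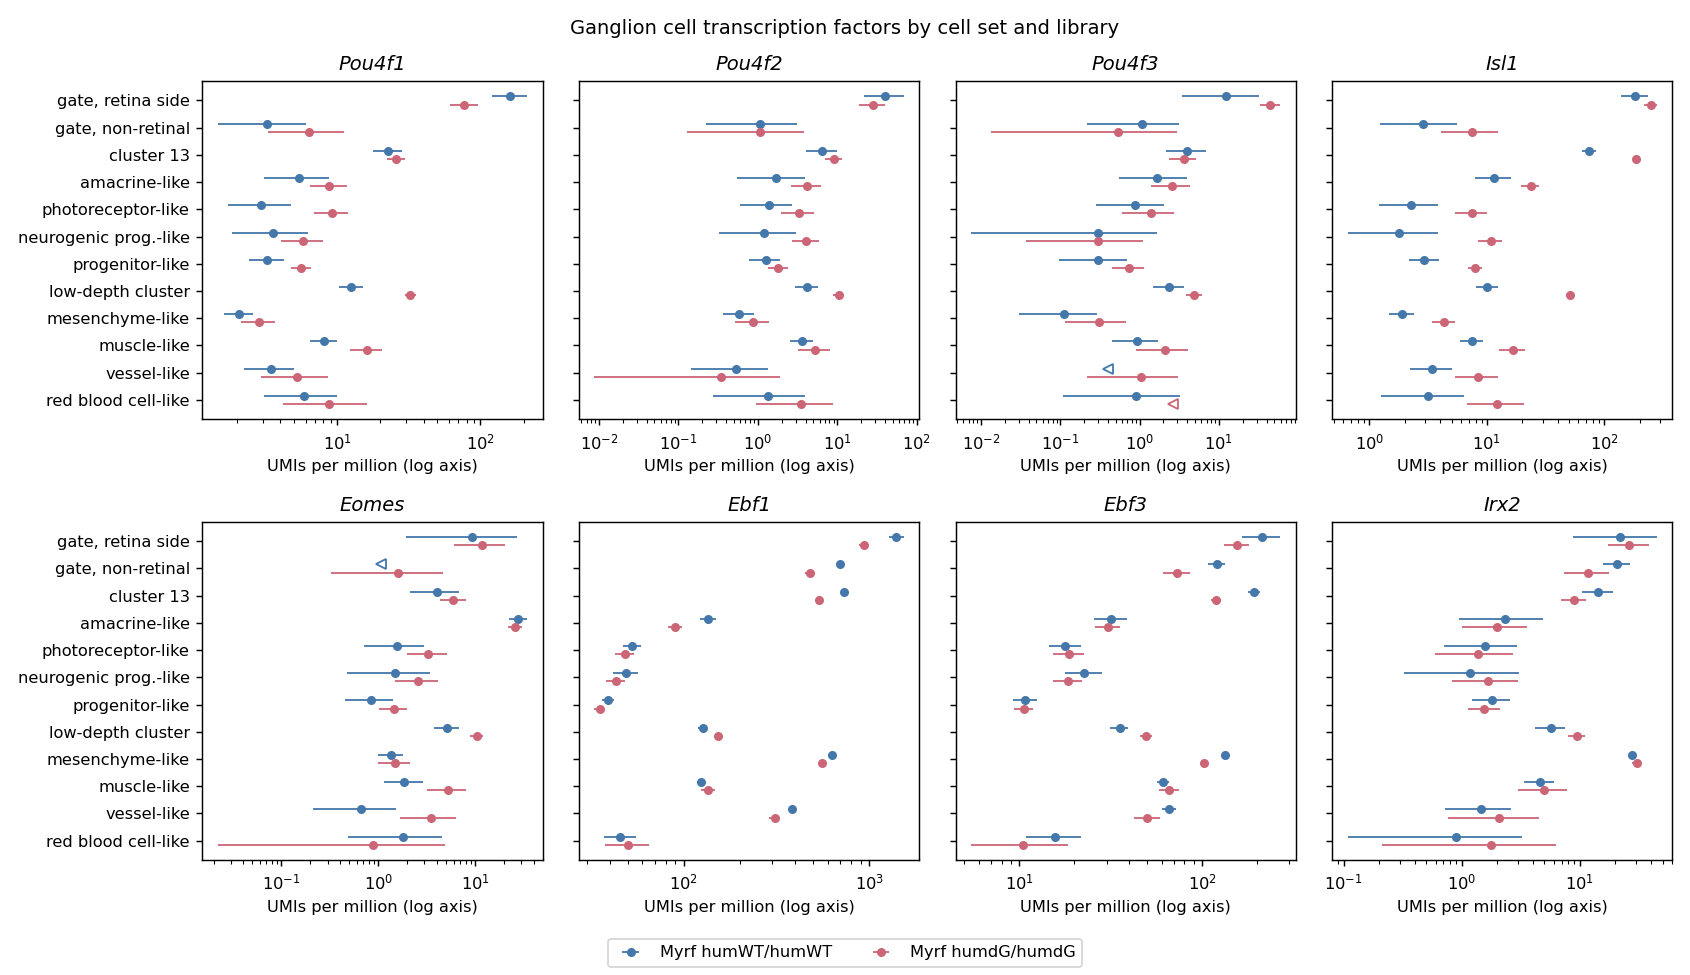
CPM (log axis) of each factor by cell set, blue for Myrf humWT/humWT and red for Myrf humdG/humdG, with exact 95% Poisson intervals and an open triangle at 3 counts where a set had no UMI. Pou4f1, Pou4f2, Pou4f3, Isl1, Ebf1 and Ebf3 are farthest right in the retina-side gate, Eomes in amacrine-like and Irx2 in mesenchyme-like cells.

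A high level in few cells was a small part of all UMIs of a factor. The retina-side gate held 7.61% and 5.92% of the *Pou4f1* UMIs of each library, in 0.247% and 0.910% of its cells. For *Isl1* it held 7.51% and 7.86%, while cluster 13 held 31.1% and 42.9%. *Pou4f3* UMIs in the gate were 4.49% in *Myrf* humWT/humWT, which is 4 of 89, and 20.2% in *Myrf* humdG/humdG, which is 46 of 228. The low-depth cluster held 16.1% and 35.8% of *Pou4f1* UMIs, more than its 6.92% and 13.1% of all UMIs. Mesenchyme-like cells held 55.0% and 43.5% of *Ebf1*, 54.3% and 37.6% of *Ebf3* and 65.8% and 57.3% of *Irx2* UMIs. For *Eomes* the amacrine-like cells held 29.0% and 27.0%.

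**Figure D3:**
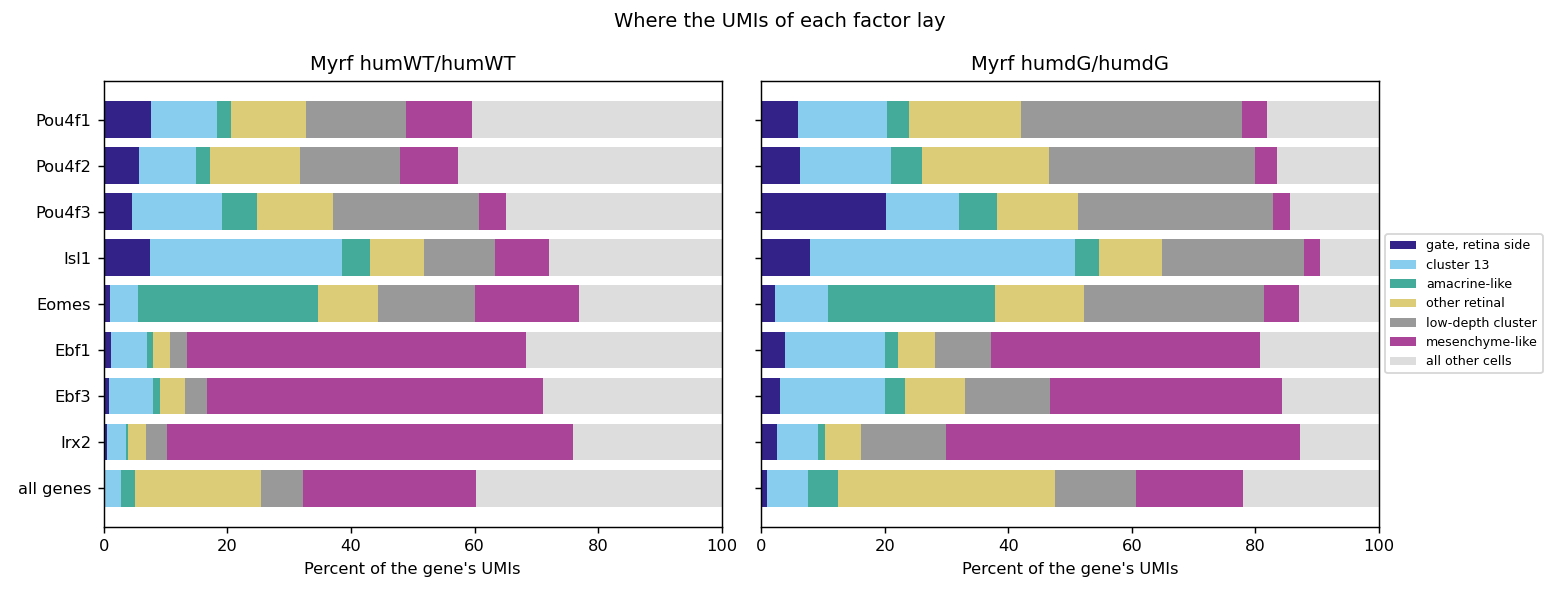
Percent of the UMIs of each factor that lay in each cell set, 1 panel per library, with all genes as the last bar. Mesenchyme-like cells hold most of the Irx2 UMIs (65.8% and 57.3%), cluster 13 the most Isl1 (31.1% and 42.9%), and the retina-side gate at most 20.2% of any factor.

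Between the libraries the retina-side gate cells differed in single factors and not in a common direction. Of the 7 factors with at least 20 UMIs, *Pou4f3* alone was at least 2-fold higher in *Myrf* humdG/humdG, as were 6.25% of 8597 genes, and *Pou4f1* alone at least 2-fold lower, as were 9.46%. *Pou4f1* differed by a log2 of -1.08 (-1.60 to -0.54) between 52 and 79 UMIs, *Pou4f3* by 1.84 (0.39 to 3.78) between 4 and 46 UMIs. *Isl1* differed by 0.46 (0.04 to 0.89), *Ebf1* by -0.58 (-0.74 to -0.42) and *Ebf3* by -0.45 (-0.87 to -0.02). *Pou4f2* at -0.52 (-1.51 to 0.55), *Irx2* at 0.27 (-0.97 to 1.71) and *Eomes* at 0.32 (-1.57 to 2.79) had intervals that held 0. The median over the 7 was -0.46 and over all genes tested -0.09. In *Myrf* humWT/humWT the 3 cells highest in a factor, taken for each factor alone, held 67.3% of the *Pou4f1*, 76.9% of the *Pou4f2* and 79.3% of the *Isl1* UMIs. Cells of 1 library are not replicates, and the intervals leave out this spread. The clusters that the gate cells came from also differed between the libraries, and the part of this in the differences was not tested. Summed over *Pou4f1*, *Pou4f2*, *Pou4f3* and *Isl1* the levels were 395 and 397 CPM, a log2 difference of 0.0077 (-0.28 to 0.31).

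These directions depended on which gate cells were counted. With the cells in non-retinal clusters included, *Pou4f1* was at 19.5 and 31.2 CPM, a log2 difference of 0.68 (0.20 to 1.17), and *Pou4f2* at 5.11 and 10.6 CPM, a difference of 1.06 (0.14 to 2.03). In that wider set 3 of 7 factors (*Pou4f2*, *Pou4f3* and *Isl1*) were at least 2-fold higher in *Myrf* humdG/humdG, beside 5.94% of 13006 genes, and none was at least 2-fold lower, beside 4.38%. The cells added hold 123 of 165 cells in one library and 101 of 275 in the other. They carried *Pou4f1* at 3.20 CPM (1.46 to 6.08) and 6.37 CPM (3.29 to 11.1), intervals that overlapped those of red blood cell-like cells. With at least 4 markers required, 11 and 58 retina-side cells were left, with *Pou4f1* at 430 and 134 CPM, *Isl1* at 430 and 518 CPM and *Ebf1* at 1425 and 1882 CPM, the last now higher in *Myrf* humdG/humdG. Without the low-depth cells *Pou4f1* differed by -1.03 (-1.71 to -0.34), while *Pou4f3* at 1.28 (-0.24 to 3.25) and *Isl1* at 0.22 (-0.22 to 0.68) had intervals that held 0. When the libraries were merged without integration, a ganglion cell-like cluster of 82 and 174 cells did form, with *Pou4f1* at 66.8 and 31.5 CPM and *Isl1* at 285 and 784 CPM. *Pou4f1* was lower and *Isl1* higher in *Myrf* humdG/humdG in that cluster, as in the retina-side gate, while *Pou4f3* turned to a log2 difference of -0.12. The unnamed cluster 21 of the finer clustering, a set looked at after the data were seen, lay in cluster 13 but for 1 cell, and 10 and 15 of its cells were retina-side gate cells. It held *Pou4f1* at 63.6 CPM (47.8 to 83.0) and 23.2 CPM (15.99 to 32.6), *Isl1* at 210 CPM (180 to 243) and 783 CPM (737 to 830), and *Pou4f3* at 7.07 CPM (2.60 to 15.4) and 9.85 CPM (5.39 to 16.5). In 16 of 82 (19.5%) and 65 of 166 (39.2%) of its cells *Gm38505* or *Chat* had a UMI, the genes that went most with *Isl1* as described below. Such cells were not counted in the merged cluster, and their part in the *Isl1* differences was not tested.

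In the low-depth cluster 5 of 8 factors (*Pou4f1*, *Pou4f2*, *Pou4f3*, *Isl1* and *Eomes*) were at least 2-fold higher in *Myrf* humdG/humdG, beside 7.05% of 15003 genes, and none at least 2-fold lower, beside 5.27%. *Isl1* was at 10.1 CPM (8.09 to 12.4) and 50.7 CPM (47.1 to 54.4), a log2 difference of 2.33 (2.01 to 2.66). *Pou4f1* differed by 1.38 (1.08 to 1.69), *Pou4f2* by 1.32 (0.79 to 1.88), *Pou4f3* by 1.04 (0.32 to 1.82) and *Eomes* by 1.03 (0.54 to 1.54), where the median gene differed by 0.29. *Ebf1* at 0.28 and *Ebf3* at 0.48 lay nearer to the median gene. Of the inducers 11 of 12 were at least 2-fold higher there too, *Atoh7* by 2.03 (1.88 to 2.19) on the log2 scale, and of the products 6 of 9. In red blood cell-like cells, which show free RNA, *Isl1* differed by 1.97 (0.57 to 3.52), *Pou4f1* by 0.59 (-0.76 to 1.90) and *Atoh7* by 1.63 (1.02 to 2.26). The median log2 difference there was 0.88 over 9 tested inducers and 1.03 over 6 tested products, beside -0.07 over all genes tested. The part of free RNA in the low-depth cluster was not tested.

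Over the whole libraries the same 5 factors were higher in *Myrf* humdG/humdG and the other 3 lower. The share of all genes in each direction was not counted, and the median gene differed by a log2 of 0.05. *Isl1* was at 6.05 and 28.9 CPM, *Pou4f1* at 5.35 and 11.9 CPM, *Pou4f2* at 1.78 and 4.11 CPM, *Pou4f3* at 0.697 and 2.03 CPM and *Eomes* at 2.24 and 4.66 CPM. *Ebf1* was at 319 and 221 CPM, *Ebf3* at 68.3 and 47.0 CPM and *Irx2* at 11.8 and 9.10 CPM. Mesenchyme-like cells, which hold much of the UMIs of these 3, made up 12.7% and 5.59% of the cells when gate cells are left out. The part of this makeup in the whole-library differences was not tested. Within mesenchyme-like cells *Irx2* differed by 0.12 (-0.03 to 0.27), *Ebf1* by -0.17 (-0.20 to -0.14) and *Ebf3* by -0.38 (-0.45 to -0.30), where the median gene differed by -0.11.

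**Figure D4:**
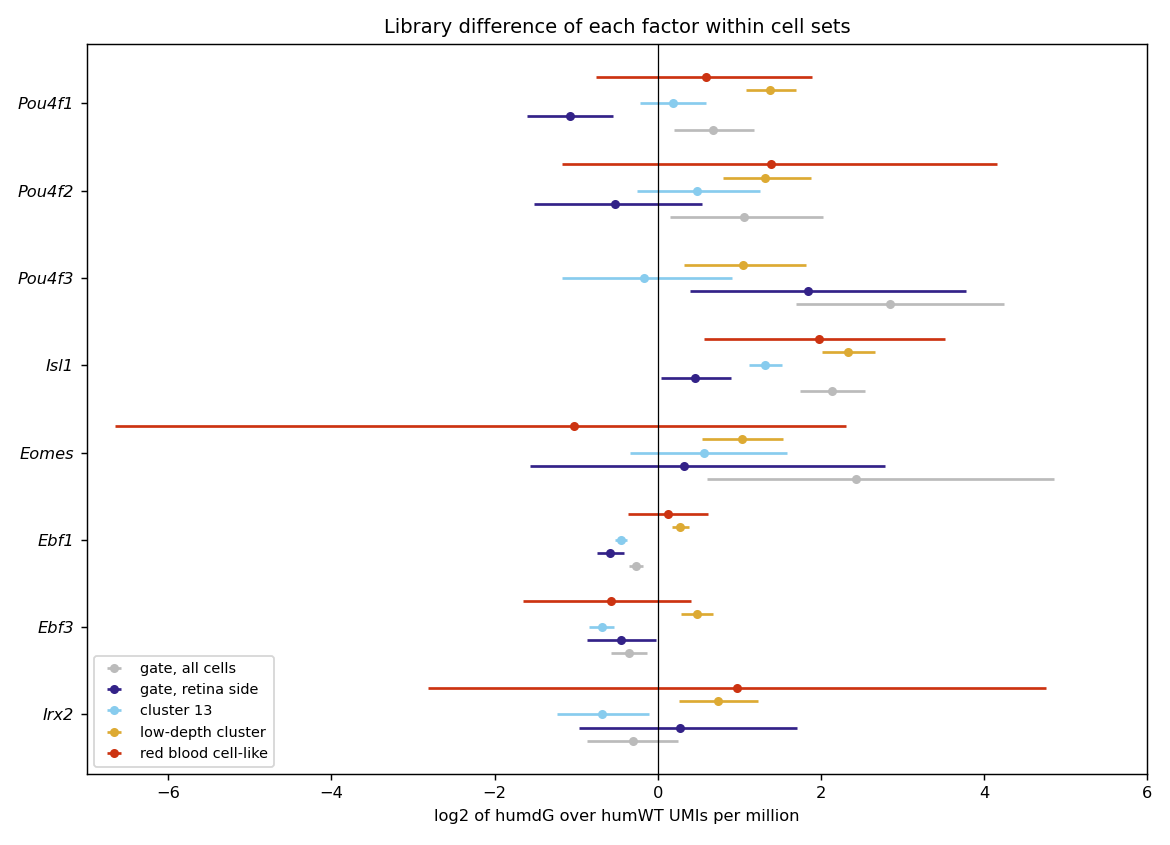
Log2 of the Myrf humdG/humdG over the Myrf humWT/humWT level of each factor in 5 cell sets, with exact 95% intervals of counting error and a line at 0. Pou4f1 is at -1.08 in the retina-side gate and at 0.68 in the whole gate, while Isl1 is right of 0 in every set. Pou4f3 has no red blood cell-like point because 1 library had no UMI there.

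In cluster 13 *Isl1* differed by a log2 of 1.32 (1.12 to 1.52), the only factor of 8 at least 2-fold higher, beside 5.04% of 15046 genes, and none was at least 2-fold lower, beside 7.55%. *Pou4f1* at 22.5 and 25.6 CPM differed by 0.18 (-0.21 to 0.59). The *Isl1* difference was not particular to cluster 13. It was 2.59 (1.40 to 4.09) in neurogenic progenitor-like cells and 1.72 (0.80 to 2.74) in photoreceptor precursor-like cells. In retinal progenitor-like cells it was 1.44 (0.99 to 1.92) and in amacrine-like cells 1.05 (0.49 to 1.64). Except in amacrine-like cells, these *Isl1* levels were no higher than in red blood cell-like cells, at 3.13 and 12.3 CPM. The levels were 1.78 and 10.7 CPM in neurogenic progenitor-like, 2.25 and 7.42 CPM in photoreceptor precursor-like and 2.93 and 7.98 CPM in retinal progenitor-like cells. Red blood cell-like cells themselves differed by 1.97 (0.57 to 3.52), and the part of free RNA was not tested. In retinal cells the genes highest in cells with an *Isl1* UMI over cells without were *Gm38505*, a gene without a known product, at 192-fold and 67.4-fold, and *Chat*, which encodes the enzyme that makes acetylcholine, at 81.0-fold and 56.6-fold, followed by *Scg2*, *Cftr* and *Cntn5*. Cells of cluster 13 outside the gate with a UMI of either were 24 of 268 (8.96%, 5.82% to 13.03%) in *Myrf* humWT/humWT and 108 of 375 (28.8%, 24.3% to 33.7%) in *Myrf* humdG/humdG, a split chosen after these values were seen. Because both genes were picked for going with *Isl1*, its level in the split is a description only. In them *Isl1* was at 370 CPM (310 to 437) and 288 CPM (271 to 305), and in the rest of the cluster at 36.2 CPM (29.6 to 43.9) and 66.9 CPM (58.6 to 76.0). Thinned to 3000 UMIs per cell, the shares with either gene were 6.34% (3.71% to 10.0%) and 18.0% (14.2% to 22.3%). *Pou4f1* in the cells with either gene was at 10.9 CPM (2.96 to 27.8) and 29.1 CPM (24.1 to 34.9).

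In retinal cells, an analysis added after the data were seen, the genes highest in cells with a factor over cells without differed by factor. For *Pou4f1* they were *D130079A08Rik* (12.5-fold and 10.3-fold), *Cpne4* (10.0-fold and 10.5-fold), *Galnt14*, *Rapgef3* and *Chrnb3*, a nicotinic receptor subunit gene. *Pou4f2* shared *D130079A08Rik* and *Cpne4* and added *Epha6*, *Snhg11* and *Ebf1* itself, which was 6.34-fold and 7.47-fold higher in its cells. For *Ebf1* they were *D130079A08Rik*, *Gm45895*, *Hpse2*, *Mir205hg* and *Gm49959*, and for *Ebf3* *Hpse2*, *Ankfn1*, *Mir205hg*, *Galnt14* and *Cntn2*. *Irx2* had *Gm48956*, *Rbm47*, *Ankfn1*, *Snhg11* and *Cntn2*, and *Pou4f3*, with 27 and 77 cells, had too few to rank. *Ankfn1* and *Gm45895* were also among the leading genes of an RPE-like cluster, and *Hpse2* of a finer cluster with mesenchyme markers raised. *Ebf1* itself was at 39.3 and 35.3 CPM in retinal progenitor-like cells, near its red blood cell-like level of 45.6 and 49.96 CPM. The part of free RNA or doublets in these lists was not tested. The genes of *Eomes* were *St18*, *Shisa6*, *Nell1*, *Slc1a6* and *Myo16* (5.92-fold and 4.74-fold), none of which was among the first 5 of *Pou4f1* or *Pou4f2*. Cells with a factor were deeper than cells without: for *Pou4f1* the medians were 9167 and 7091 UMIs in *Myrf* humWT/humWT and 9054 and 7889 UMIs in *Myrf* humdG/humdG. In the whole gate, where only *Ebf1* and *Ebf3* had the 50 cells required in each library, the first 5 of both held *Col5a3*, a collagen gene, at 11.6-fold and 10.4-fold for *Ebf1* and 4.89-fold and 4.39-fold for *Ebf3*. The others were *Car8*, *Fgf18*, *Lvrn* and *Ccn3* for *Ebf1* and *Hpse2*, *Grrp1*, *Scara5* and *Cd55* for *Ebf3*.

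Over the summed levels of 14 cell sets in 2 libraries, 28 points that share libraries and depth, the 3 genes most like each factor were taken. Of them *Chrnb3*, for *Pou4f1*, was alone in also being among the first 5 genes of its factor above. The gate, 1 of the sets, was chosen by *Nefl*, *Nefm* and *Sncg* among its markers, so their likeness to a factor that is high in it was partly fixed by that choice. *Nefl*, a neurofilament gene, was most like *Pou4f1* (Pearson r = 0.91), then *Cntn2* and *Chrnb3*. For *Pou4f2* the order was *Nefm* (0.85), *Isl1* (0.82) and *Nefl* (0.80), and for *Isl1* it was *Cntn2*, an axonal adhesion gene (0.91), *Nefm* and *Sncg*. *Sst*, the somatostatin gene (0.87), *Adcyap1* and *Gm45321* led for *Pou4f3*, and *Cacng2* (0.95), *Dpf3* and *Nhlh2* for *Eomes*. For *Ebf1* the leading genes were *Kcp*, *Aoc3* and *Emilin1*, for *Ebf3* *Kcnd2*, *Arsj* and *Ccn3*, and for *Irx2* *Glt8d2*, *Pdgfrl* and *Osr1*. Among the factors themselves r was 0.83 between *Pou4f1* and *Isl1*, 0.84 between *Ebf1* and *Ebf3* and -0.03 between *Eomes* and *Irx2*.

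At least 1 of *Pou4f1*, *Pou4f2*, *Pou4f3* and *Isl1* had a UMI in 18 of 42 and 78 of 174 retina-side gate cells, and at least 2 of them in 8 (19.0%, 8.60% to 34.1%) and 39 (22.4%, 16.5% to 29.3%). Thinned to 3000 UMIs, which 36 and 100 of these cells reach, at least 2 were expected in 15.3% (5.51% to 31.2%) and 17.7% (10.8% to 26.7%). Cluster 13 outside the gate had 0.906% (0.141% to 2.95%) and 2.17% (0.936% to 4.24%) at that depth, and amacrine-like cells 0.364% and 0.543%. None of 500 and 258 red blood cell-like cells had at least 2 without thinning, which by a floor of 3 counts allows shares of up to 0.600% and 1.16%. At 3000 UMIs the gate intervals lay above those of cluster 13 in both libraries. At the other depths they overlapped: unthinned, cluster 13 had 8.21% (5.22% to 12.2%) and 18.1% (14.4% to 22.4%), and at 1000 UMIs it had 0.163% (up to 1.69%) and 0.400% (up to 1.70%) against 3.55% (0.254% to 14.4%) and 3.83% (1.51% to 7.87%) in the gate. Between libraries the gate intervals overlapped.

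Pairs were less clear at equal depth. In unthinned retina-side gate cells, 26 of 28 pairs of factors in each library were seen more often in cells with the other factor than in cells without. Intervals were apart for 1 and 15 pairs. The other retinal clusters had 27 and 28 such pairs, with intervals apart for 20 and 28, so this order was not particular to the gate. In the gate *Isl1* had a UMI in 6 of 12 *Pou4f1* cells and 3 of 30 others in *Myrf* humWT/humWT, and in 20 of 41 and 30 of 133 in *Myrf* humdG/humdG. Thinned to 3000 UMIs, 22 and 24 of the 28 pairs had the same order in the gate, with intervals apart for none and 2. In the other retinal clusters 23 and 23 pairs had it, with intervals apart for 3 and 4. Among gate cells *Isl1* was then expected in 40.5% (11.4% to 75.7%) of *Pou4f1* cells and 12.6% (3.03% to 31.0%) of the others in *Myrf* humWT/humWT, and in 48.3% (23.7% to 73.5%) and 22.1% (13.7% to 32.5%) in *Myrf* humdG/humdG. *Ebf1* was expected in 90.1% (72.2% to 98.2%) of *Isl1* cells and 36.9% (25.96% to 49.0%) of the others in *Myrf* humdG/humdG, intervals that did not overlap. In cluster 13 *Pou4f1* was expected in 6.74% and 4.41% of *Isl1* cells and in 3.77% and 4.47% of the others, so no link of the pair was detectable there at this depth.

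**Figure D5:**
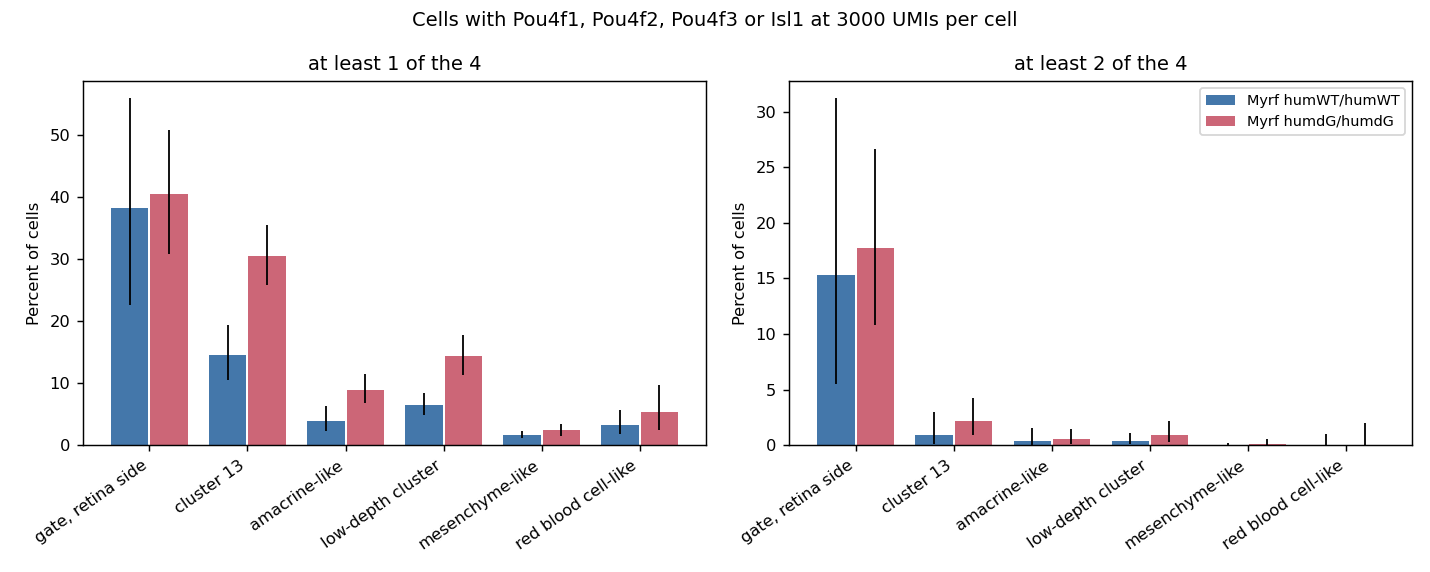
Percent of cells expected to hold at least 1 (left) or at least 2 (right) of Pou4f1, Pou4f2, Pou4f3 and Isl1 when each cell is thinned to 3000 UMIs, by cell set and library, bars from 0 with 95% Clopper-Pearson intervals. At least 2 factors are expected in 15.3% and 17.7% of retina-side gate cells and in at most 2.17% of cells of the other sets.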

How the data were processed

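The authors deposited raw UMI counts per gene and barcode from 10x 3′ libraries, aligned to mm10 with Cell Ranger 7.1.0 and analysed in Seurat 4.1.1 per the submitters' processing notes. No replicate exists, so nothing was tested between genotypes. Cells were kept above 500 genes and below 15% mitochondrial UMIs, then integrated and clustered in Seurat 5.3.0 (R 4.3.3) with 20 integration dimensions, 30 components and resolution 0.5, the 8 factors left out. Scrublet called 1 and 0 cells, so it did not work and no doublets were removed. Levels were summed counts as CPM with exact Poisson intervals, and shares have Clopper-Pearson intervals. Ratios were counted only where both libraries together held 20 UMIs or more, and a difference was counted from 2-fold. Shares at 3000 UMIs are exact expectations of thinning, so expected numbers need not be whole. No cluster was named ganglion cell-like at resolution 0.5 or 1.0 (at least 3 markers raised, 1 of them among the 20 leading genes), so the marker gate, planned for that case, was used. The non-retinal clusters were left out, which gives the retina-side gate cells, and the accompanying genes were also ranked over retinal cells. Both of these choices were made after the data were seen. All 8 factors were named, with the first 5 accompanying genes (at least 50 cells with a UMI and 30 UMIs) and the first 3 genes by Pearson r of each. Single genes of the 4 lists were named after their values were seen. The members, gate and lists were chosen with earlier results of these data known. Python 3.11.15, numpy 2.4.6, scipy 1.17.1, pandas 2.3.3, scanpy 1.11.5 and matplotlib 3.10.9 were used, and functions were tested on simulated data.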

Additional observations from a re-analysis of the deposited data

Results flagged for a closer look

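Between the libraries 4 factors moved in opposite directions in different cell sets, each with an interval of counting error clear of 0. The share of all genes that did so was not counted, and the difference between the sets was not tested. Taking *Myrf* humWT/humWT from *Myrf* humdG/humdG on the log2 scale, the difference for *Pou4f1* was -1.08 in retina-side gate cells and 1.38 in the low-depth cluster. For *Ebf1* it was -0.58 in retina-side gate cells, -0.45 in cluster 13 and 0.28 in the low-depth cluster. For *Ebf3* it was -0.45, -0.69 and 0.48 in the same sets. *Irx2* differed by -0.68 in cluster 13 and by 0.74 in the low-depth cluster. The low-depth cluster held 21.1% and 42.2% of the cells, and the median gene there differed by 0.29. *Ebf1* at 0.28 thus lay at the median gene of that cluster. The interval of *Irx2* there, 0.26 to 1.23, held the median gene, and that of *Ebf3*, 0.29 to 0.68, began at it. In retina-side gate cells the median gene differed by -0.09 and in cluster 13 by 0.15.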

How the results depend on the processing

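No paired analysis was possible because each genotype is 1 library. Of the recomputed summed levels, ratios and co-detection shares, 92 stayed within the counting interval and 34 moved. Part of those that stayed, here and among the other values below, could not move, because the gate over all cells does not use the clusters. Keeping the factors among the features, resolution 1.0 or leaving the largest cluster in place returned the same 165 and 275 cells. The tally also holds removal of the 5% highest scores of Scrublet, which called 1 and 0 cells. For all 165 and 275 gate cells, *Pou4f1*, *Pou4f2*, *Pou4f3* and *Isl1* summed to 47.9 and 150.4 CPM, a log2 difference of 1.65, with at least 2 factors expected in 3.88% and 9.87% of cells. Without the non-retinal clusters, chosen after seeing the data, these were 395 CPM, 397 CPM, 0.0077, 15.3% and 17.7%, and *Pou4f1* turned to -1.08 and *Pou4f2* to -0.52. Merged without integration, which formed a ganglion cell-like cluster of 82 and 174 cells in place of the gate, the sums were 378 and 833 CPM, the log2 difference 1.14 and the *Myrf* humdG/humdG share 6.14%, and *Pou4f1* turned to -1.08, *Pou4f2* to -0.97, *Pou4f3* to -0.12 and *Eomes* to -0.025. Subtracting free RNA gave 36.7 and 126 CPM. Thinned to 1000 UMIs the shares were 1.04% and 2.55%, and 3.55% and 3.83% in retina-side cells, and not thinned 15.6% in *Myrf* humdG/humdG. With at least 4 markers, added after seeing the data, all gate cells had 163 and 473 CPM and shares of 16.8% and 26.5%, *Ebf1* turned to 0.71 and *Ebf3* to 0.27. Retina-side cells then had 977 and 785 CPM, a difference of -0.31 and shares of 44.3% and 35.2%, and *Ebf1* turned to 0.40. Without the low-depth cluster, also added then, the sums were 40.4 and 114 CPM, and 353 CPM in retina-side *Myrf* humdG/humdG cells. Where no cause is given above, the cause was not tested. Cluster 21 of the finer clustering in place of retina-side gate cells, also added then, gave 293 and 823 CPM, a difference of 1.49 and a *Myrf* humdG/humdG share of 5.46%. Among the other values 564 stayed, 121 moved and 10 turned. Depth limits *Eomes*, *Pou4f3* and *Irx2* in retina-side gate cells, each on fewer than 8 UMIs in *Myrf* humWT/humWT.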
